A study of Mus musculus with 21 samples.

Results

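Apolipoproteins are the protein parts of the particles that carry lipid in blood, and 9 of their genes were followed in mouse liver together with Mttp, whose product loads lipid onto the largest of these proteins. The members Apoa1, Apoa2, Apoa4, Apoa5, Apob, Apoc2, Apoc3, Apoe, Apom and Mttp were chosen by name, as every non-control spot that the array files assign to 1 of the 10 symbols. They account for 10 of 34797 gene names, 13 of 55681 probes and 31 of 59305 non-control spots on the array. All 13 probes passed the filter on dim probes described below, as did 26289 probes in all. The spots of Apoa1 and Apoe were printed 10 times per array, and Apoa2, Apob and Apoc3 each had a pair of different probes.

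The livers were those of male, adult C57BL/6J mice, an inbred strain, which all ate a normal-fat diet for 3 weeks and then a high-fat diet for 12 weeks. The high-fat diet of 11 mice held no quercetin (HF), and that of 10 mice held this plant flavonoid at 0.33% of diet weight (HF-Q). Food was withheld for 2 to 4 hours before the livers were taken, and no group on a normal-fat diet was analysed here, so the comparison asks how quercetin alters these transcripts under a high-fat diet. Each liver was labelled with Cy5 and hybridised to 1 array against a Cy3-labelled pool of all livers. The log2 ratio is that of liver to pool after normalization within the array, so 0 need not be the level of the pool.

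Lipoproteins made by the liver are built around apolipoprotein B, a very long secreted protein that takes up lipid in the endoplasmic reticulum with the help of microsomal triglyceride transfer protein, the product of Mttp. Once in blood, the particles exchange small apolipoproteins that switch lipoprotein lipase on or off (C-II, C-III, A-V) or bind receptors for uptake (E). Apolipoproteins A-I, A-II and M belong to high-density lipoprotein, and apolipoprotein A-IV is made mainly by intestine, and in mice also by liver, where lipid loading is known to raise its transcript.

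Each probe is 60 bases long, and the places of the probes are given below. The sequences shown are those of the pair on Apob, whose values differed, and of Apoa4, Apom and Apoe, whose livers ranked like or opposite to those of another member. The dimmer Apoa2 probe is shown for its agreement with the brighter one, which stands for Apoa2 in the correlations. All are given 5′ to 3′ in the sense of the transcript, and coordinates are on mouse build NCBI37 as in the array files.
Apob upstream: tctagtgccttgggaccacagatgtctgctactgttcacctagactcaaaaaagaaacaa
Apob downstream: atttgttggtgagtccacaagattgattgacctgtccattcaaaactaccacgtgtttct
Apoa4: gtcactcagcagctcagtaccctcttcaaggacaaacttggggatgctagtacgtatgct
Apom: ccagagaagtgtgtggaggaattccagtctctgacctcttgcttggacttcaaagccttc
Apoa2 dimmer: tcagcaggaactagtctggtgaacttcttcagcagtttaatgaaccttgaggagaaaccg
Apoe: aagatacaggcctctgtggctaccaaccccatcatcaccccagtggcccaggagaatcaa

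The Apob upstream probe starts at position 4473 of the transcript (chr12:8012697-8012756, plus strand) and the downstream probe at 13457 (chr12:8023194-8023253, plus strand), so 8984 bases of transcript lie between their starts. The Apoa4 probe covers 744 bases of genome (chr9:46049661-46050404, plus strand) with 60 bases of sequence, and so crosses a splice junction. Its neighbours Apoa1 (chr9:46037921-46037980, plus strand), Apoc3 (chr9:46041134-46041193, minus strand) and Apoa5 (chr9:46079943-46080002, plus strand) lie in the same gene cluster. Apoc2 (chr7:20257027-20257086) and Apoe (chr7:20281732-20281791), both on the minus strand, belong to a cluster on chromosome 7. The Apom probe lies at chr17:35267047-35267106 and the Mttp probe at chr3:137753868-137753927, both on the minus strand, and the Apoa2 probes at chr1:173156320-173156379 (dimmer) and chr1:173156445-173156504 (brighter) on the plus strand. A matching exon annotation of this build was not used here. The hexamer AATAAA, the polyadenylation signal, was searched in the sense of each probe and occurred in 2 of 13 probes, the brighter ones of Apoa2 and Apoc3, against 10.1% of all 55681 probes.

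No spot of the 13 probes was saturated in either channel on any array, although Apoa2 and Apoe were among the brightest probes measured. The raw Cy5 signal of Apoe stood at 66.6% to 75.9% of each array's saturation value, that of the brighter Apoa2 probe at 66.3% to 76.5% and that of the dimmer at 65.7% to 76.0%. The brighter Apoc3 probe reached 37.3% to 49.4%, Apoc2 15.5% to 22.4% and Apoa1 11.8% to 20.9%. All spots of these 5 genes, except the dimmer Apoc3 probe, were read from the low-gain scan of an extended-range pair of scans in both channels. Apob and Apom mixed the scans. The low-gain scan gave 20 of 21 Cy5 and 21 Cy3 spots of Apob upstream, 4 and 0 of Apob downstream, and 21 and 16 of Apom. An effect of the scan on their values was not tested.

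The raw Cy5 signal of Apoe varied by a CV of 3.71% over the 21 livers and its Cy3 signal, which is the same pool on every array, by 10.5%. The order was the same for the brighter Apoa2 probe, at 3.57% and 9.76%, the dimmer Apoa2 probe, at 4.18% and 11.6%, and the brighter Apoc3 probe, at 6.57% and 11.6%. For the other 9 probes the liver channel varied more, most clearly for Apoa4, with a CV of 33.7% in Cy5 and 7.60% in Cy3. Whether signal compression at the bright end narrowed the liver values of Apoa2, Apoe and Apoc3 was not tested.

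**Figure D1:**
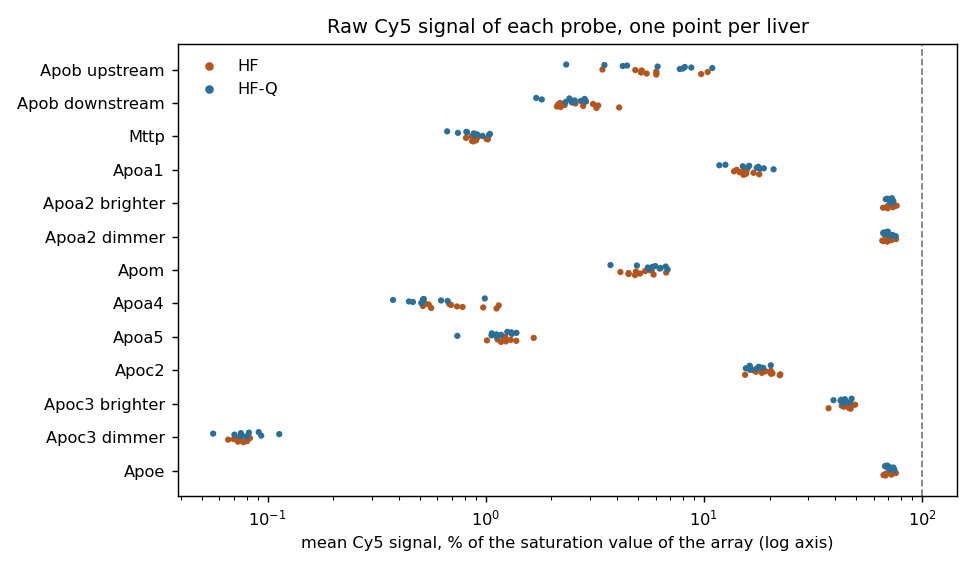
Raw mean Cy5 signal of each of the 13 probes as a percentage of the saturation value of its array (log axis), 1 point per liver, HF and HF-Q in different colours, with the dashed line at saturation. Both Apoa2 probes and Apoe lie within 65.7% to 76.5% in all livers, and the dimmer Apoc3 probe lies lowest, between 0.0562% and 0.113%.

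The 13 probes were compared between the diets. None of the 13 probes passed an adjusted p of 0.05 (limma with Benjamini-Hochberg adjustment over 26289 probes; lowest adjusted p among the members 0.839), and 0% of all probes did. At an unadjusted p under 0.05 there were 2 member probes, those of Apoc2 and Apoa4, against 5.65% of all probes, and both were lower in HF-Q, against 2.75% of all probes for that direction. None was higher at that threshold, against 2.9% of all probes. Irrespective of p, 10 of 13 probes were lower in HF-Q and 3 higher, and their median log2 fold change was -0.062. Over all probes 52.4% were lower and the median was -0.0034. These counts and the median moved with scaling: with arrays centred on their median in place of loess, 6 of 13 were lower, the median was 0.027, and 0 of 13 had an unadjusted p under 0.05 (p = 0.368 for Apoc2 and 0.106 for Apoa4). From Cy5 alone and in the deposited values 2 member probes had an unadjusted p under 0.05, those of Apoa1, higher in HF-Q, and Apoa4, lower. Over all probes that threshold was met by 331 of 26289 with median centring. It was met by 1146 of 26289 from Cy5 alone and by 1372 of 26208 in the deposited values. The median SD between livers was 0.19 for member probes against 0.13 for all kept probes. The brighter and dimmer Apoa2 probes, Apoe and Mttp varied less than most. Their SDs exceeded those of 23.0%, 28.4%, 27.9% and 35.9% of kept probes. The other member probes varied more than most.

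**Figure D2:**
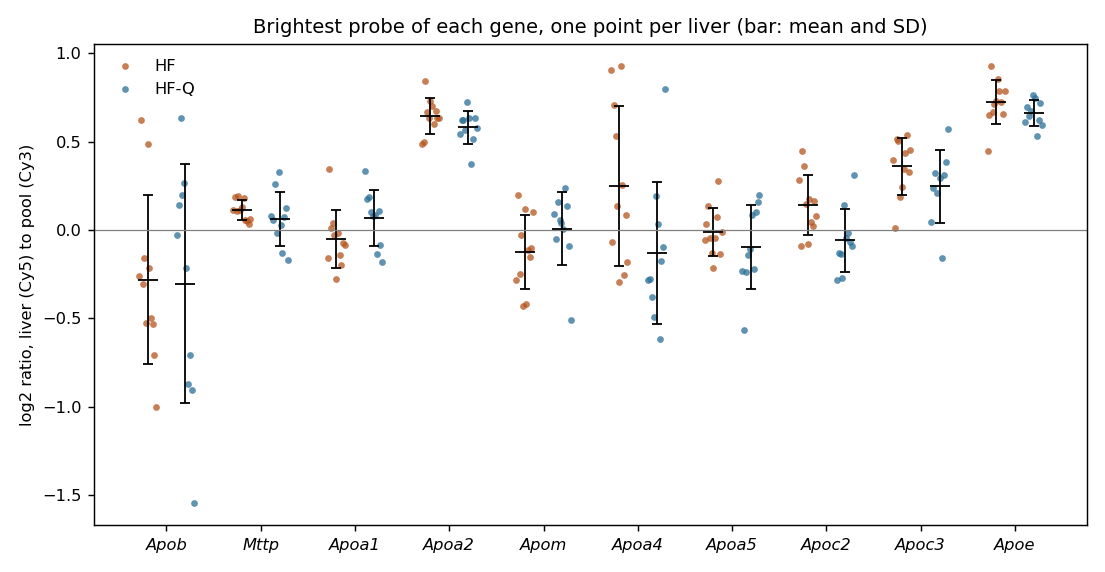
Log2 ratio of each liver (Cy5) to the pool (Cy3) for the brightest probe of each gene, 1 point per liver, 11 HF and 10 HF-Q, with bars for the mean and SD. HF and HF-Q overlap for every gene, Apob and Apoa4 spread most, and every liver lies above 0 for Apoa2 and Apoe.

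Slide 1 held 3 HF and 4 HF-Q arrays, slide 2 held 4 and 2, and slide 3 held 4 and 4. In Cy5, 45.5% to 52.5% of an array's probes stood well above background. All 9 hepatocyte markers looked at, among them albumin and transthyretin, were measured, and their mean log2 ratio per liver lay between -0.15 and 0.49. The list means differed between HF-Q and HF by -0.016 for hepatocytes, -0.080 for Kupffer cells or macrophages (8 of 9 markers measured), -0.047 for sinusoidal endothelium (5 of 5), -0.0012 for stellate cells (5 of 5) and -0.024 for lymphocytes (4 of 4). For cholangiocytes (2 of 4), adipocytes (2 of 4), enterocytes (1 of 5) and pancreatic acinar cells (4 of 6) the differences were -0.0080, -0.052, -0.22 and -0.47. None of these marker genes had an unadjusted p under 0.05 in limma. HF replicate 2 and HF-Q replicate 10 stood on the other group's side in Cyp2b10, a drug-metabolising gene, at -1.96 against -0.096 or above in the other HF livers and at 0.62 against -0.91 or below in the other HF-Q livers. Values for the members are therefore also given without both livers, an exclusion chosen after the data were seen. In that fit 5 of 13 member probes had an unadjusted p under 0.05 and none passed after adjustment. Of all 26289 probes, 2354 had an unadjusted p under 0.05 in that fit and 22 passed after adjustment. With all livers the counts over all probes were 1486 and 0. In whole tissue, fewer cells of a type and less RNA per cell cannot be told apart.

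For Apob, which encodes the structural protein of very-low-density lipoprotein, the upstream probe spread widely and its difference between the groups did not pass the test. In HF livers its log2 ratio had a lowest value of -1.0, a median of -0.31 and a highest value of 0.62, and in HF-Q livers -1.55, -0.12 and 0.64. The groups overlapped, the HF-Q livers reaching lower, with HF replicate 2 highest among HF livers and HF-Q replicate 10 lowest among HF-Q livers. The log2 fold change of HF-Q against HF was -0.022 ± 0.230 (SE; 95% interval -0.50 to 0.45; limma adjusted p = 0.999). Its SD over all livers, 0.57, was larger than that of 99.5% of kept probes. Without HF replicate 2 and HF-Q replicate 10 the log2 fold change was 0.21, of the opposite sign.

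The downstream Apob probe spread less. Its log2 ratio ran from -0.30 to 0.70 with a median of -0.17 in HF, and from -0.60 to 0.15 with a median of -0.12 in HF-Q. HF replicate 2 was again the highest HF liver and HF-Q replicate 10 the lowest HF-Q liver, and the groups overlapped. The log2 fold change was -0.15 ± 0.11 (SE; limma adjusted p = 0.972), -0.075 without HF replicate 2 and -0.027 without both livers.

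The Apob probes did not report the same liver-to-liver pattern. The upstream minus the downstream log2 ratio ranged from -0.94 in HF-Q replicate 10 to 0.66 in HF-Q replicate 3, with an SD of 0.48. Among 1330 other transcripts with a pair of kept probes at least 1000 bases apart, the median SD of that difference was 0.16, and 99.5% had a smaller one. Over the 21 livers the Apob probes correlated at r = 0.54 and rho = 0.34 (permutation p = 0.00999 and 0.125; adjusted over 7 relations between probes, p = 0.0287 and 0.176), and at r = 0.45 without the 2 livers farthest from the median.

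The mean of the upstream probe differed with the position of the array on its slide. Each slide carries its arrays in 2 rows, and the probe averaged 0.0012 ± 0.364 (SD, n = 10) in row 1 and -0.56 ± 0.60 (n = 11) in row 2. This difference of -0.56 was larger in size than that of 99.9% of kept probes, for a probe whose SD exceeded that of 99.5%. Within rows the values still ran from -0.53 to 0.64 in row 1 and from -1.55 to 0.62 in row 2. The downstream probe differed between rows by 0.060. In HF-Q livers the upstream means were 0.15 in row 1 and -0.75 in row 2, and in HF livers -0.14 and -0.39, 5 HF-Q arrays lying in each row and 5 and 6 HF arrays. With the row as a block the log2 fold change between diets was -0.047 ± 0.203 (SE). With row, slide and group removed, the Apob probes correlated at r = 0.68. The median upstream minus downstream ratio of the 1330 other pairs in a liver correlated with the Apob difference at r = 0.48 and rho = 0.41. The permutation p was 0.0275 and 0.0672 (adjusted over 7 relations, p = 0.0481 and 0.118). Its r was 0.43 with the upstream and 0.051 with the downstream Apob probe (adjusted p = 0.0635 and 0.831). Whether the position on the slide, the integrity of this long transcript or a difference between its parts sets the values of the upstream probe was not tested.

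**Figure D3:**
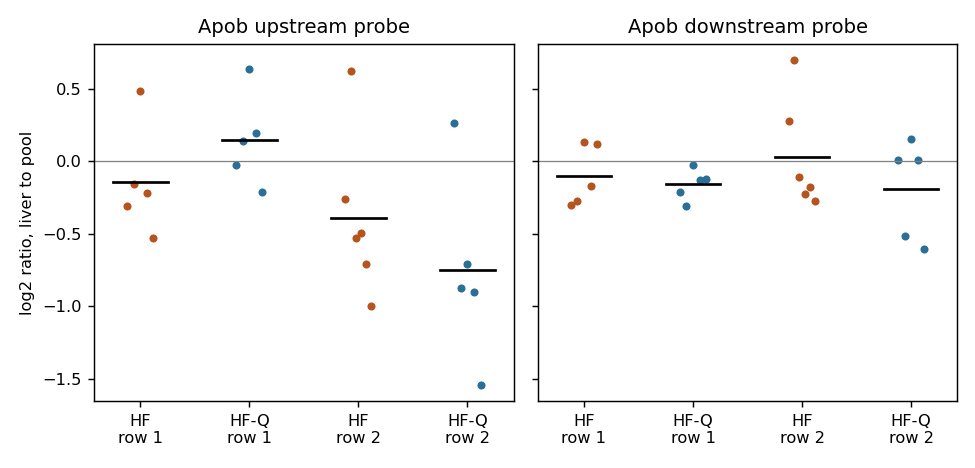
Log2 ratio of each liver to the pool for the upstream (left) and the downstream (right) Apob probe, split by diet and by the row of the array on its slide, with lines at the means. Upstream means are 0.15 in row 1 and -0.75 in row 2 in HF-Q and -0.14 and -0.39 in HF, while the downstream probe differs by 0.060 between rows.

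Mttp, the transfer protein that lipidates apolipoprotein B, was among the steadiest members. In HF livers its log2 ratio lay between 0.033 and 0.20 with a median of 0.11, and in HF-Q livers between -0.17 and 0.33 with a median of 0.063. The HF livers sat inside the wider range of the HF-Q livers (SD 0.057 and 0.15). HF-Q minus HF was -0.050 ± 0.050 on the log2 scale (SE; 95% interval -0.15 to 0.054; limma adjusted p = 0.986). It was -0.080, -0.029 and -0.024 without HF-Q replicates 5, 7 and 10 in turn, and -0.017 without HF replicate 2 and HF-Q replicate 10. The equality of the SDs was not tested.

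Apoa1, the main protein of high-density lipoprotein, was measured on 10 spots per array. Its log2 ratio ran from -0.28 to 0.35 with a median of -0.076 in HF livers and from -0.18 to 0.33 with a median of 0.094 in HF-Q livers. The groups overlapped over nearly all of their range, and 7 of 10 HF-Q livers were above the HF median. The log2 fold change was 0.12 ± 0.07 (SE; 95% interval -0.020 to 0.26; limma adjusted p = 0.908). Spots within an array differed by a median SD of 0.028, against 0.17 between livers. HF replicate 2 was the highest HF liver. Slide 2 gave 0.38, and slides 1 and 3 gave 0.035 and 0.0034. The exclusion of HF replicate 2 and HF-Q replicate 10 gave 0.19 (limma unadjusted p = 0.00278, adjusted p = 0.279). The unadjusted p was 0.0907 in the main setting and 0.104 with median centring. It was 0.012 without HF replicate 2, 0.0163 with array weights, 0.0383 from Cy5 alone and 0.018 in the deposited values.

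Apoa2, the second protein of high-density lipoprotein, had a pair of probes that agreed. The brighter probe lay between 0.49 and 0.85 with a median of 0.64 in HF and between 0.37 and 0.73 with a median of 0.60 in HF-Q. The dimmer probe lay between 0.63 and 0.94 with a median of 0.79 in HF and between 0.43 and 0.86 with a median of 0.73 in HF-Q. Every liver had a log2 ratio above 0 on both probes, and HF-Q replicate 7 was lowest on both. The probes correlated at r = 0.91 and rho = 0.85 (permutation p = 1e-05 for both, the smallest that 100000 resamples can give; adjusted p = 7e-05), and at r = 0.82 without the 2 livers farthest from the median. The log2 fold changes were -0.064 ± 0.045 and -0.053 ± 0.047 (SE; limma adjusted p = 0.962 and 0.986), and their signs turned with median centring (0.027 and 0.036). Without HF-Q replicate 7 they were -0.041 and -0.021, and without HF replicate 2 and HF-Q replicate 10 -0.079 and -0.067.

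The log2 ratios of Apoa2, Apoe and the brighter Apoc3 probe were above 0 in all or nearly all livers, although the pool was made from these livers. The mean log2 ratio over all livers was 0.62 for the brighter Apoa2 probe, 0.74 for the dimmer, 0.69 for Apoe and 0.31 for the brighter Apoc3 probe, and no dyes were swapped. Such an offset is not read as a level here, and only differences between livers are.

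Apom, the lipocalin that carries sphingosine-1-phosphate on high-density lipoprotein, was higher in most HF-Q livers, without passing the test. Its log2 ratio ran from -0.43 to 0.20 with a median of -0.11 in HF and from -0.51 to 0.24 with a median of 0.048 in HF-Q. While 9 of 10 HF-Q livers were above the HF median, the remaining one, HF-Q replicate 10, was the lowest liver of all. The log2 fold change was 0.13 ± 0.08 (SE; 95% interval -0.044 to 0.31; limma adjusted p = 0.950). It was positive within slides 1, 2 and 3, at 0.085, 0.17 and 0.19. Without HF-Q replicate 10 it was 0.19 (unadjusted p = 0.0168, adjusted p = 0.571), and without HF replicate 2 as well it was 0.22 (adjusted p = 0.307).

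Apoc2, the activator of lipoprotein lipase, had the lowest p of the family and was lower in HF-Q. In HF livers its log2 ratio had a lowest value of -0.090, a median of 0.15 and a highest value of 0.45, and in HF-Q livers -0.28, -0.079 and 0.31. The groups overlapped, but 9 of 10 HF-Q livers were below the HF median, and the exception was HF-Q replicate 10. Expression was 1.15 times lower in HF-Q (log2 fold change -0.20 ± 0.07, SE; 95% interval -0.35 to -0.050; limma unadjusted p = 0.0111, adjusted p = 0.839). It ranked 335 among 26289 probes by p. The difference was -0.21, -0.17 and -0.24 within slides 1, 2 and 3 and -0.21 with the slide as a block. Leaving out 1 liver at a time gave -0.24 to -0.17, and leaving out both HF replicate 2 and HF-Q replicate 10 gave -0.26 (unadjusted p = 5.45e-04, adjusted p = 0.176). The scaling mattered more: it was -0.12 with median centring, -0.13 from Cy5 alone and -0.15 in the deposited values (unadjusted p = 0.368, 0.194 and 0.111).

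Apoc3, whose product inhibits lipoprotein lipase and hepatic uptake, was read by probes of very different brightness. On the brighter probe HF livers ran from 0.012 to 0.54 with a median of 0.40 and 9 HF-Q livers from -0.16 to 0.57 with a median of 0.29. The spot of HF-Q replicate 6 was marked as an outlier by the scanner software and left out of this fit. The groups overlapped, HF-Q minus HF being -0.11 ± 0.08 on the log2 scale (SE; limma adjusted p = 0.959). It turned to 0.042 within slide 1 and was -0.21 and -0.17 within slides 2 and 3. Without HF-Q replicate 7 it was -0.062, and without HF replicate 2 and HF-Q replicate 10 it was -0.19 (unadjusted p = 0.0106, adjusted p = 0.367).

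The dimmer Apoc3 probe, which the array files assign to an Ensembl transcript and which starts at its position 54 (chr9:46043606-46043665, minus strand), differed in the other direction by a small amount. HF livers ran from -0.21 to 0.33 and HF-Q livers from -0.23 to 0.22, with medians of 0.037 and 0.059. HF-Q differed from HF by 0.043 ± 0.062 on the log2 scale (SE; limma adjusted p = 0.995), and was 0.25, 0.036 and -0.15 within slides 1, 2 and 3. It ranged from 0.019 without HF replicate 5 to 0.076 without HF-Q replicate 7, and was 0.043 without HF replicate 2 and HF-Q replicate 10. Over 20 livers the Apoc3 probes correlated at r = 0.43 and rho = 0.30 (permutation p = 0.0544 and 0.201; adjusted over 7 relations, p = 0.0635 and 0.234), and at r = 0.41 without the 2 farthest livers. With slide and group means removed r was 0.65, and within HF and HF-Q livers it was 0.21 and 0.83.

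Apoa5, a plasma activator of triglyceride clearance, overlapped between diets. Its log2 ratio lay between -0.21 and 0.28 with a median of -0.044 in HF and between -0.57 and 0.20 with a median of -0.12 in HF-Q. The low end came from HF-Q livers, of which 6 of 10 were below the HF median. HF-Q differed from HF by -0.086 ± 0.078 on the log2 scale (SE; limma adjusted p = 0.986), and within slides 1, 2 and 3 it was 0.053, -0.14 and -0.21. It was -0.034 without HF-Q replicate 2, -0.057 without HF replicate 9 and -0.11 without HF replicate 2 and HF-Q replicate 10.

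Apoa4 had the largest difference of the family. In HF livers its log2 ratio had a lowest value of -0.29, a median of 0.13 and a highest value of 0.93, and in HF-Q livers -0.62, -0.22 and 0.80. Most HF-Q livers lay low, 8 of 10 of them below the HF median, and HF-Q replicate 10 stood among the highest HF livers. Expression was 1.3 times lower in HF-Q (log2 fold change -0.38 ± 0.17, SE; 95% interval -0.73 to -0.028; limma unadjusted p = 0.0356, adjusted p = 0.859). Its SD over all livers, 0.46, exceeded that of 98.9% of kept probes.

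The size of the Apoa4 difference rested mostly on slide 3. It was -0.80 there, against -0.13 and -0.16 on slides 1 and 2, and -0.40 with the slide as a block. Leaving out 1 liver at a time gave -0.48 to -0.31, and the unadjusted p was over 0.05, at 0.0719 or less, without HF replicate 1, 3, 4 or 7 or HF-Q replicate 1, 2, 3, 4 or 7. Without HF replicate 2 and HF-Q replicate 10 it was -0.51 (unadjusted p = 0.00356, adjusted p = 0.297). The difference between slides was not tested.

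Since apolipoprotein A-IV is also an intestinal product, markers of enterocytes were looked at beside it. Of 5 markers, Vil1, Sis, Lct and Alpi were not well above background, and Fabp2, which liver also makes, was the marker measured. Its mean log2 ratio was 0.033 in HF and -0.19 in HF-Q livers. The summed raw Cy5 signal of the measured enterocyte list was 37942 to 68032 in HF and 35596 to 69634 in HF-Q livers. Markers of pancreatic acinar cells, of which 4 of 6 were measured, had mean log2 ratios of 2.58 in HF replicate 11 and 1.95 in HF replicate 5 against -0.18 or below in all HF-Q livers. Their summed raw Cy5 signal was 873 to 16043 in HF and 817 to 1505 in HF-Q livers. In these HF livers Apoa4 stood at -0.18 and 0.13, inside the range of the group. The part of either list in the Apoa4 difference was not tested.

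Apoe, the receptor ligand of remnant particles, differed little between diets. Its log2 ratio lay between 0.45 and 0.93 with a median of 0.73 in HF and between 0.53 and 0.77 with a median of 0.66 in HF-Q. The HF-Q livers sat inside the HF range, and 8 of 10 were below the HF median. The log2 fold change was -0.062 ± 0.047 (SE; 95% interval -0.16 to 0.035; limma adjusted p = 0.972). Its sign turned with median centring (0.029) and from Cy5 alone (0.0040), and it was -0.062 without HF replicate 2 and HF-Q replicate 10. The 10 spots of an array differed by a median SD of 0.032, against 0.11 between livers.

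**Figure D4:**
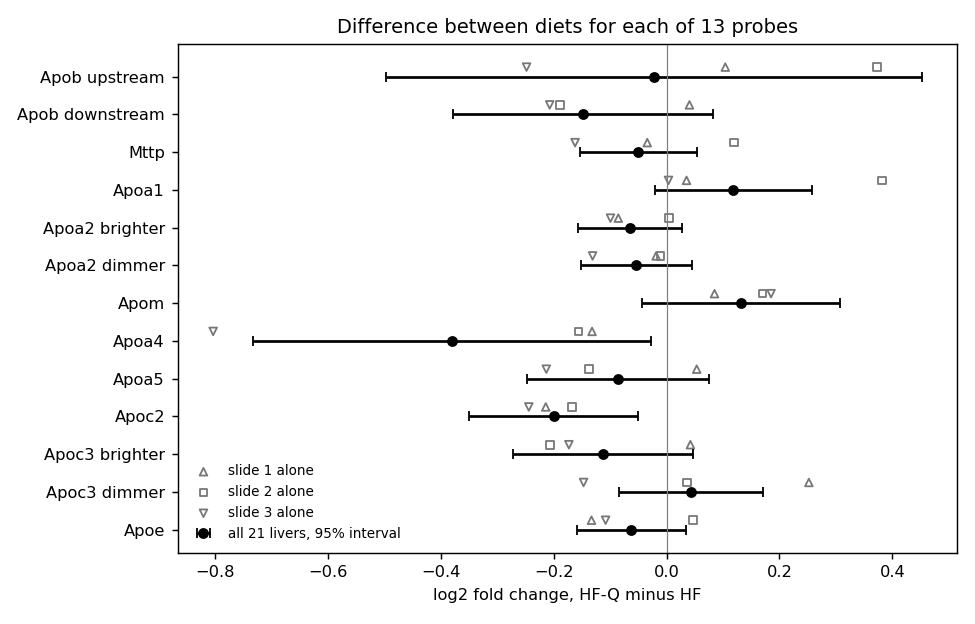
Log2 fold change of HF-Q against HF for each of the 13 probes, with the 95% interval from all 21 livers (filled circles) and the value within each slide alone (open symbols). The intervals of Apoc2 (-0.35 to -0.050) and Apoa4 (-0.73 to -0.028) do not include 0 before adjustment, and the widest is that of the Apob upstream probe (-0.50 to 0.45).

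Livers differed from each other in a shared way for some members. Over 45 pairs of members, each by its brightest probe, the median r was 0.16, and 8 pairs passed an adjusted p of 0.05 on Pearson's r (permutation test with 100000 resamples), 5 of them also on Spearman's rho. All are ratios to the same pool and share the normalization of their array.

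Apoa4 and Apoc2, the 2 members lowest in HF-Q by p, ranked the livers alike. They correlated at r = 0.82 and rho = 0.82 (permutation p = 1e-05 and 3e-05, adjusted p = 0.000225 and 0.00112). Within HF livers r was 0.76 and within HF-Q livers 0.81, and it was 0.85 without the 2 livers farthest from the median of Apoa4 and 0.78 after removal of slide and group means. Livers with much Apoa4 also had much Apoc2 under either diet, HF-Q replicate 10 included. Their differences between diets are therefore not independent of each other.

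Apom ran the other way. It correlated with Apoa4 at r = -0.77 and rho = -0.74 (permutation p = 1e-04 and 0.00031, adjusted p = 0.0015 and 0.00465) and with Apoc2 at r = -0.63 and rho = -0.64 (permutation p = 0.00243 and 0.00249, adjusted p = 0.0219 and 0.0224). Within HF and HF-Q livers the r with Apoa4 was -0.64 and -0.87. Without the 2 farthest livers these values were -0.70 for Apoa4 and -0.70 for Apoc2, and with slide and group means removed -0.73 and -0.52, the last no longer past the threshold (adjusted p = 0.0996).

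Apoa2 and Apoe ranked the livers alike too, at r = 0.82 and rho = 0.79 (permutation p = 1e-05 and 5e-05, adjusted p = 0.000225 and 0.00112). The r was 0.73 without the 2 farthest livers and 0.87 after removal of slide and group means. Both are probes whose pool channel varied more than their liver channel, and the part of that channel in the correlation was not tested.

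Apob and Mttp correlated at r = 0.66 and rho = 0.54 (permutation p = 0.00102 and 0.0131, adjusted p = 0.0115 and 0.0564). Without the 2 farthest livers r was 0.45 (adjusted p = 0.201), so the passing of the threshold on r depended on them. Within HF and HF-Q livers r was 0.69 and 0.70, and with slide and group means removed 0.70 (adjusted p = 0.0054). The downstream Apob probe correlated with Mttp at r = 0.54 and rho = 0.48 (permutation p = 0.0123 and 0.029; adjusted over 7 relations, p = 0.0287 and 0.102), and at r = 0.40 without the 2 farthest livers.

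The other pairs past the threshold joined Apoc3 to Apoa2, Apoc2 and Apoa4, at r = 0.59, 0.58 and 0.57 and rho = 0.44, 0.62 and 0.56 over 20 livers (permutation p on r = 0.0064, 0.00644 and 0.00863; adjusted p = 0.0414, 0.0414 and 0.0485). The pool channel of the Apoc3 probe also varied more than its liver channel, and its part in these correlations was not tested. None of the 3 pairs passed with slide and group means removed (adjusted p = 0.157, 0.157 and 0.154), and without the 2 farthest livers r was 0.29, 0.49 and 0.64. The neighbours Apoa1, Apoc3, Apoa4 and Apoa5 on chromosome 9 split by sign. Apoa4 with Apoc3, Apoa5 with Apoc3 and Apoa4 with Apoa5 stood at r = 0.57, 0.56 and 0.37, and Apoa1 with Apoa4, Apoa5 and Apoc3 at -0.24, -0.33 and -0.43, of which only Apoa4 with Apoc3 passed the threshold on r and only Apoa5 with Apoc3 on rho (rho = 0.69, permutation p = 0.00113, adjusted p = 0.0127).

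**Figure D5:**
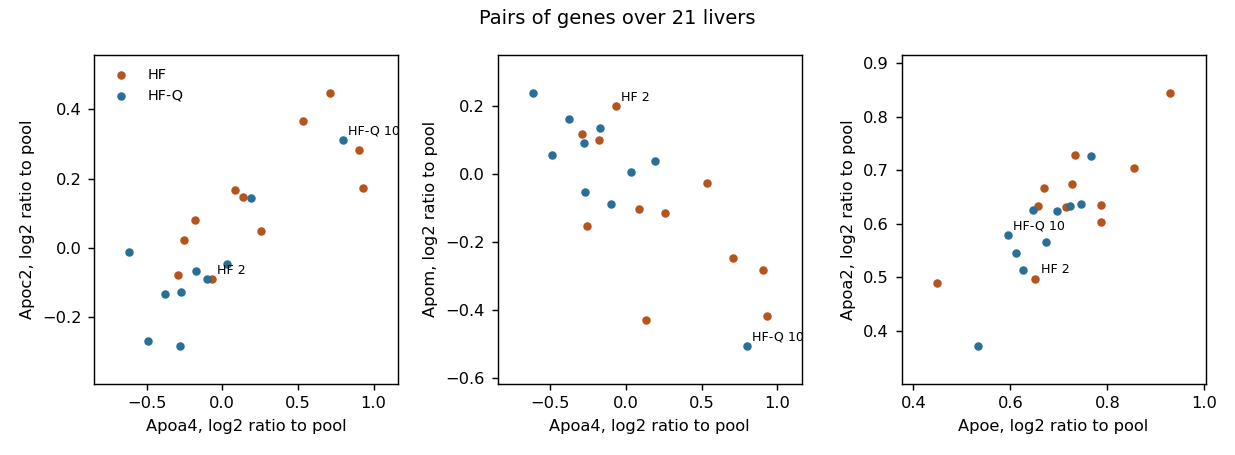
Log2 ratios to the pool over the 21 livers for Apoc2 against Apoa4 (left), Apom against Apoa4 (middle) and Apoa2 against Apoe (right), HF and HF-Q in different colours and HF replicate 2 and HF-Q replicate 10 named. The points run together at r = 0.82 on the left and on the right and run oppositely at r = -0.77 in the middle.

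A search over 13692 genes named the genes most like each member over the livers by Pearson's r, as a description. For Apoa4 they were Gatb, a mitochondrial transfer RNA enzyme (r = 0.90), and Cidea, a lipid droplet protein (0.89), and for Apoc2 Plscr2 (0.87) and Sprr1a (0.86). The genes most like Apoc3 were the lysosomal fucosidase Fuca1 (0.89) and the apolipoprotein gene Apoc1 (0.88), over 20 livers. For Apoa1 they were Selenbp1 (0.86) and the fatty acid binding protein Fabp5 (0.84), and for Apoa5 the liver X receptor gene Nr1h3 (0.82) and the kinase Stk25 (0.79). Rpl28 (0.87) and Cdh1 (0.85) were nearest to Apom, Tmbim6 (0.90) and Apoa2 (0.82) to Apoe, and Apoe (0.82) and Cdo1 (0.78) to Apoa2. Apob on its upstream probe was nearest to Rab3c (0.94) and Mtif2 (0.93), and Mttp to Gsk3b (0.79) and Csf3r (0.77). The highest r among so many genes is large by selection, and no p is attached to it.

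The wider pathway was compared between diets as well. Of 77 listed genes of lipoprotein metabolism 73 were measured, and 53 were lower in HF-Q and 20 higher, their log2 fold changes having a median of -0.032, beside 52.4% lower and a median of -0.0034 over all kept probes. None passed the adjusted threshold in limma and 7 had an unadjusted p under 0.05, to be read against 5.65% of all probes.

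Of the other apolipoproteins 10 of 12 were measured, 8 lower and 2 higher, and the median was -0.046, or 0.024 when arrays were centred on their median. Saa4, an apolipoprotein of the serum amyloid A family, differed by -0.17 ± 0.06 (SE; unadjusted p = 0.0129). Apoh, Apoc1 and Apon, other plasma apolipoproteins, differed by -0.076, -0.067 and -0.057.

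Of 17 genes of particle assembly and secretion 10 were lower and 7 higher, and their median was -0.018, or 0.042 when arrays were centred on their median. Dgat2, which makes triglyceride, differed by -0.19 ± 0.09 (SE; unadjusted p = 0.0388). The lipid droplet protein Cideb differed by -0.091, the secretion factor Mia2 by -0.099 and Apobec1, which edits the Apob transcript, by 0.091.

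Among lipases, exchange proteins and partners of high-density lipoprotein, 15 of 17 were measured, 12 lower and 3 higher, at a median of -0.044, or 0.014 when arrays were centred on their median. The cholesterol exporter Abcg1 differed by -0.14 ± 0.06 (SE; unadjusted p = 0.0342). The lipase inhibitor Angptl4 differed by -0.15 and the phospholipase Pla2g7 by -0.10. Lcat and Lipc stood at 0.0019 and -0.020.

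Of 12 receptors and uptake genes 8 were lower and 4 higher, at a median of -0.013, or 0.022 when arrays were centred on their median. The lipolysis-stimulated receptor Lsr differed by 0.19 ± 0.07 (SE; unadjusted p = 0.0135). Vldlr and the fatty acid transporter Cd36 differed by -0.25 and -0.27.

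Of 19 transcriptional regulators 15 were lower and 4 higher, at a median of -0.061, or -0.020 when arrays were centred on their median. The bile acid receptor gene Nr1h4 had the lowest p of the whole pathway, at -0.20 ± 0.05 (SE; unadjusted p = 0.00148, limma adjusted p = 0.812). Ppara, a regulator of fatty acid use and of several apolipoprotein genes, differed by -0.23 ± 0.10 (unadjusted p = 0.0368). Creb3l3, a liver regulator of Apoa4 and Apoc2, differed by -0.073 ± 0.042 (unadjusted p = 0.0925), the clock repressor Nr1d1 by -0.17 and Hnf4a by 0.0023.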

How the data were processed

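RNA of 21 livers was measured on 2-colour Agilent arrays, from 24 mice of which the authors excluded 3 arrays for uneven hybridisation, per the labels. The authors deposited scanner output with mean spot intensity and local background intensity per channel, not normalized, and processed intensity, which is corrected for background and dye, per the file headers. The software was Agilent Feature Extraction 10.7.3.1, per the submitters' processing notes, and it also wrote the deposited flags, 0 or 1, for saturated, outlying or well detected spots. A deposited log2 table, whose columns all had a median of 7.92 and correlated with Cy5 at r = 0.973 to 0.989, served as an alternative. The step behind that median is not given in the sources used.

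In limma 3.58.1 (R 4.3.3), background was corrected with normexp (offset 50) and ratios were normalized by loess within arrays. Control, uneven and outlying spots were left out, spots of a probe were averaged, and probes well above background in Cy5 on at least 10 of 21 arrays were kept, in all 26289. The diets were compared with limma's moderated two-sided test and Benjamini-Hochberg adjustment across the kept probes. Each array holds 1 liver, and p-values measure the spread between these samples. Replicate numbers do not pair the livers: deviations of the 10 same-numbered pairs correlated at r = -0.32 to 0.16.

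On simulated data of 26289 probes the HF-Q against HF test recovered 54% of probes changed by 0.25, 92% by 0.5 and 100% by 1 (log2), with 7.98% of calls false and 0 calls without change. The simulated noise was normal and independent between probes, without slides, rows or outlying livers, and 50 probes were changed at each size. These shares are over all probes and need not hold for the members, whose median SD between livers was larger than that of all kept probes. The members, the pathway and marker lists and the settings were chosen with earlier results of these data known. Named genes were all members, up to 4 genes of lowest p per pathway list, and the 2 genes most like each member. Other genes were named after their values were seen. Some genes that the rule names are counted in their lists but not reported here one by one. Alternatives changed background correction, scaling, filter, variance model, blocks, slides and livers. Names of the members are those of the array files. Other genes carry the RefSeq symbol of their transcript where one matched, and otherwise the name in the array files.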

Additional observations from a re-analysis of the deposited data

Results flagged for a closer look

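In HF-Q, the group of 10 livers, each of the 13 probes was searched for a single liver far from the rest by Dixon's criterion. Such a liver was found for 3 probes. For normal values chance flags about 1 in 20 groups. The share flagged over all kept probes was not computed, so the count is not read as a trait of the members. The HF group of 11 was not searched. HF-Q replicate 7 stood at 0.43 on the dimmer Apoa2 probe, with the nearest HF-Q liver at 0.67. On the dimmer Apoc3 probe the same liver stood at -0.23, with the nearest at 0.0084. HF-Q replicate 10 stood at -0.51 for Apom, with the nearest at -0.087.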

How the results depend on the processing

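No member probe passed the adjusted threshold in any setting run. Over all probes the count of 0 became 1 with array weights, 1 on slide 2 alone, 0 to 1 with each liver left out in turn (1 without HF-Q replicate 10), and 22 without both HF replicate 2 and HF-Q replicate 10. At an unadjusted p under 0.05, 1486 probes in the main setting became 331 with median centring, 978 on slide 2, 2863 with no filter and 2354 without both livers; 51.3% of them were higher in HF-Q, against 68.0% with median centring, 63.1% from Cy5 alone and 69.0% in the deposited values. Replicate numbers as a block, though they do not pair the livers, gave 0 probes past the threshold and 1463 unadjusted. Of 45 correlations 8 passed, and 5 with slide and group means removed, 4 of them among the 8, as well as 5 without the 2 farthest livers, all among the 8.

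Directions of small differences turned in some settings. With median centring the signs turned for Apoa2 (0.027 and 0.036), Apoe (0.029) and the Apob upstream probe (0.046); from Cy5 alone for Apoe (0.0040); in the deposited values for the dimmer Apoa2 probe (0.0011) and Apob upstream (0.023). Within slide 1 they turned for Apoa5 (0.053), both Apob probes (0.10 upstream, 0.041 downstream) and the brighter Apoc3 probe (0.042), within slide 2 for the brighter Apoa2 probe (0.0045), Apob upstream (0.37), Apoe (0.047) and Mttp (0.12), and within slide 3 for the dimmer Apoc3 probe (-0.15). Apob upstream was also 0.13 with array weights, 0.036 with the slide as a block, 0.21 without both livers and between -0.13 and 0.12 with each liver left out. Apoa1, Apoa4, Apoc2 and Apom kept their sign in every setting run. The cause of these turns was not tested. Dim probes are drawn toward 0 by the normexp offset, and the number of arrays limits precision.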
